A study of Homo sapiens with 6 samples.

Results

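HSPB1, BAG3 and CLU are 3 human genes whose products keep damaged proteins from clumping, and their transcript levels were followed in A549 cells after heat, X-rays or both. They were chosen by gene symbol from 14884 named genes, on 53617 array features in all, and each was represented by 1 feature. The choice was made with earlier results of these arrays known, so every value of these 3 genes below is a description and carries no test.

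A549 is an established human lung adenocarcinoma line. The labels define 6 groups, with 1 Affymetrix array in each. The cells had all grown for 24 h at 37 °C. The irradiated group stayed at 37 °C and received 3 Gy of X-rays, followed by 3 h at 37 °C. The heated groups spent 1 h at 41.5 °C or at 44 °C and then 3 h at 37 °C. In the combined groups the same heat was followed at once by 3 Gy, and the labels give no time from then to harvest. The control group had neither treatment, and no later harvest time is given for it, so a difference from the control can include time in culture. The same holds for a difference between a combined array and an array with the stated 3 h. The labels do not say whether each array had a culture of its own, so scatter among these 6 arrays may be technical. Errors and p-values below cover only these arrays, with no replicate of any group.

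HSPB1 encodes HSP27, a small heat shock protein that works without ATP. It binds unfolding proteins and actin filaments, and kinases of the p38 pathway alter its assembly into large complexes. BAG3 encodes a co-chaperone that binds HSP70 through its BAG domain and small heat shock proteins through short motifs, and so passes damaged clients to autophagy. CLU encodes clusterin, a secreted chaperone that binds misfolded proteins outside the cell and is known in tumour cells as a survival factor. Heat shock factor 1 (HSF1) drives much of the transcriptional answer to heat by binding heat shock elements, which are inverted repeats of the bases GAA and TTC.

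The promoters of HSPB1 and BAG3 are shown. The promoter set used here held no entry for CLU, which was not left out for its levels. Each line gives 250 bases up to the transcript start, from RefSeq on build GRCh38.p14, plus strand, with matches to the motifs GAANNTTC and TTCNNGAA in capitals. Both strands are covered, since these motifs read the same on either strand.
HSPB1, chr7:76302423-76302672: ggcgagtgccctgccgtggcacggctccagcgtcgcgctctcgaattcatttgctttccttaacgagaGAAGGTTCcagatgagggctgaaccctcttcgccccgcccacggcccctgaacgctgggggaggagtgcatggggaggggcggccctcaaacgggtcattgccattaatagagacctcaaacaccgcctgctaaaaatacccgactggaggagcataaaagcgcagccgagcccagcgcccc
BAG3, chr10:119651130-119651379: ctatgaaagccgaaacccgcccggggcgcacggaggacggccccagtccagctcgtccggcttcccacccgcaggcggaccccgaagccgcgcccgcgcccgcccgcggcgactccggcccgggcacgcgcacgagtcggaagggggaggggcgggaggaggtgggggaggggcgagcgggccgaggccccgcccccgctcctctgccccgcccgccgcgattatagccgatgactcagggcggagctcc
The HSPB1 window held 1 match, GAAGGTTC, from 182 to 175 bases before the start. The BAG3 window held 0 matches to either motif, which says only that these letters are not in this window. One or other motif was found in 11.6% of the 35116 promoter windows of the table. Among 9 cytosolic chaperone genes, discussed below, 6 had a match in at least 1 window, and 2 of them, HSPA6 and CHORDC1, held the longer element of 3 alternating GAA and TTC units, each 2 bases apart, present in 0.441% of all windows. The G and C content of the window was 61.6% for HSPB1 and 78.0% for BAG3, against a median of 58.0% over all windows.

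Levels are log2 values from robust multi-array averaging (RMA), as the authors deposited them, with medians over all features from 4.39 to 4.46 per array. Differences came from an additive model of temperature and radiation, which leaves 2 residual degrees of freedom. Each temperature then has 2 arrays, and 3 arrays had radiation and 3 had none. The SE below are moderated, with each gene's variance drawn towards that of genes of like intensity. The residual SD of the gene itself was 0.055 for HSPB1, 0.19 for BAG3 and 0.43 for CLU. Between temperatures it equals the SE without moderation, so the moderated SE of BAG3 and CLU understate their own scatter. Of the marker genes for A549 and lung epithelium, 7 of 12 were on named features, and all 7 had a mean above 4.41, the median over all features, KRT18 (keratin 18) at 11.51 and KRT19 (keratin 19) at 4.43. So did 10329 of the 14884 named genes, so a mean above it says little of cell identity. All 3 measured endothelial markers and both measured fibroblast markers lay below that median. The 2 measured leukocyte markers, CD14 and CD68 of 5 listed, did not: their summed log2 level was 14.92 and 14.91 at 44 °C without and with radiation and lay between 13.35 and 13.93 in the other 4 arrays. CD14 and CD68 thus moved with the 44 °C arrays, and their part in the results was not tested.

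HSPB1 was higher after heat by about the same amount at both temperatures. Its log2 level with radiation was 10.65 at 37 °C, 11.55 at 41.5 °C and 11.48 at 44 °C. Without radiation it was 10.78, 11.54 and 11.58 at the same temperatures. The 4 heated arrays lay within 0.10 of each other, and the lowest of them stood above both arrays at 37 °C. At 41.5 °C the difference from 37 °C was 0.83 ± 0.07 on the log2 scale, or 1.78-fold (moderated SE, 2 arrays at each temperature). At 44 °C it was 0.81 ± 0.07, or 1.76-fold. The step between the 2 heats, 44 °C minus 41.5 °C, was -0.018 ± 0.069, and its sign differed between the pair with radiation (-0.075) and the pair without (0.039).

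HSPB1 was already abundant in unheated cells, at 10.78 without and 10.65 with radiation, where the medians over all features were 4.39 and 4.41. Over all 6 arrays, 4 of them heated, 0.121% of genes had a higher mean. RefSeq lists 2 HSPB1 pseudogenes, HSPB1P1 and HSPB1P2, and whether the HSPB1 probes tell them from the gene was not tested.

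BAG3 was graded with temperature. Its log2 level with radiation was 6.85 at 37 °C, 8.18 at 41.5 °C and 9.42 at 44 °C. Without radiation it was 7.20, 8.04 and 9.31. The 3 temperatures did not overlap, and each step was larger than the gap between the arrays of 1 temperature. The difference from 37 °C was 1.09 ± 0.12 at 41.5 °C (2.12-fold) and 2.34 ± 0.12 at 44 °C (5.06-fold). These moderated SE are smaller than the residual SD of BAG3 itself, 0.19. The step from 41.5 °C to 44 °C was 1.25 ± 0.12, with 1.23 in the pair with radiation and 1.27 in the pair without. Only 0.202% of genes had a wider range over the 6 arrays.

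**Figure D1:**
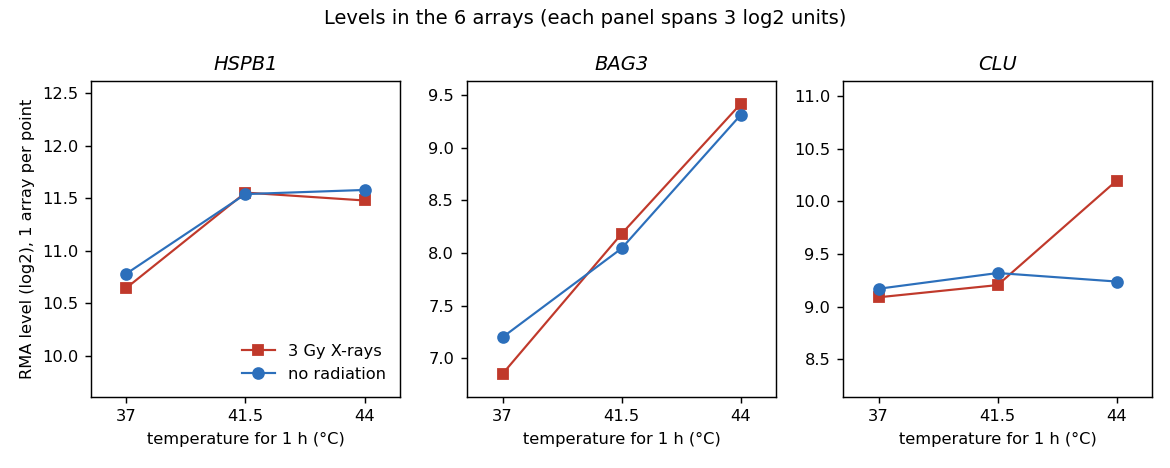
Log2 levels of HSPB1, BAG3 and CLU (y axis, each panel 3 log2 units high) at 37, 41.5 and 44 °C (x axis), with 3 Gy of X-rays (red squares) and without radiation (blue circles), 1 array per point. HSPB1 stands at 11.48 to 11.58 in all 4 heated arrays, BAG3 climbs at each step, and CLU leaves its range of 9.09 to 9.32 only in the array of 44 °C with X-rays.

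CLU differed little in 5 of the 6 arrays and stood apart in the last. Its log2 level with radiation was 9.09 at 37 °C, 9.20 at 41.5 °C and 10.20 at 44 °C. Without radiation it was 9.17, 9.32 and 9.24. The array of 44 °C with radiation was thus 0.88 above the next highest, while the other 5 arrays spanned 0.23. Heat alone gave a difference from the control of 0.15 at 41.5 °C and 0.068 at 44 °C, and in the same pairs of arrays 51.2% and 79.3% of genes were further from 0. The residual SD of CLU in the additive model was 0.43, against a median of 0.113 over all genes. Clusterin in the combined 44 °C array was 2.16-fold the level of the irradiated array at 37 °C.

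In the additive model the difference for CLU was 0.13 ± 0.20 for 41.5 °C against 37 °C, 0.59 ± 0.20 for 44 °C against 37 °C and 0.46 ± 0.20 for 44 °C against 41.5 °C. These moderated SE are smaller than the residual SD of CLU itself, 0.43. The values for 44 °C rest on the combined 44 °C array. Without it they were 0.060 and -0.073, and on leaving out the 44 °C array of heat alone they were 1.12 and 0.98.

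Among all 14884 genes, BAG3 had the 16th highest difference at 41.5 °C, HSPB1 the 62nd and CLU the 3645th. At 44 °C against 37 °C BAG3 was 24th, HSPB1 251st and CLU 466th. From 41.5 °C to 44 °C BAG3 was 95th, CLU 768th and HSPB1 7351st, near the middle. HSPB1 thus ranked lower at 44 °C than at 41.5 °C although its own difference hardly moved.

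Radiation was then considered at each temperature, as the difference between 1 irradiated and 1 unirradiated array, with no replicate check. In each pair the labels give 3 h after treatment for 1 array and no time for the other. Radiation and harvest time therefore cannot be told apart in these differences. For HSPB1 it was -0.14 at 37 °C, 0.014 at 41.5 °C and -0.10 at 44 °C. For BAG3 it was -0.35 at 37 °C, 0.14 at 41.5 °C and 0.11 at 44 °C. All 6 of these values lay inside the middle 95% of genes in the same pair of arrays, which reached from -0.48 to 0.51 at 37 °C and from -0.47 to 0.42 at 44 °C. BAG3 at 37 °C was the nearest to an edge, with 12.4% of genes further from 0 in that pair.

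CLU had a radiation difference of -0.081 at 37 °C, -0.11 at 41.5 °C and 0.96 at 44 °C. The value at 44 °C was 1.95-fold and the 13th highest of all genes in that pair, where 0.0806% of genes were higher. Averaged over the 3 temperatures, the radiation term of the model was 0.25 ± 0.17 for CLU, -0.035 ± 0.094 for BAG3 and -0.074 ± 0.056 for HSPB1 (moderated SE, 3 arrays with and 3 without radiation). For CLU this average hides the split between the temperatures: without the combined 44 °C array it was -0.098.

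**Figure D2:**
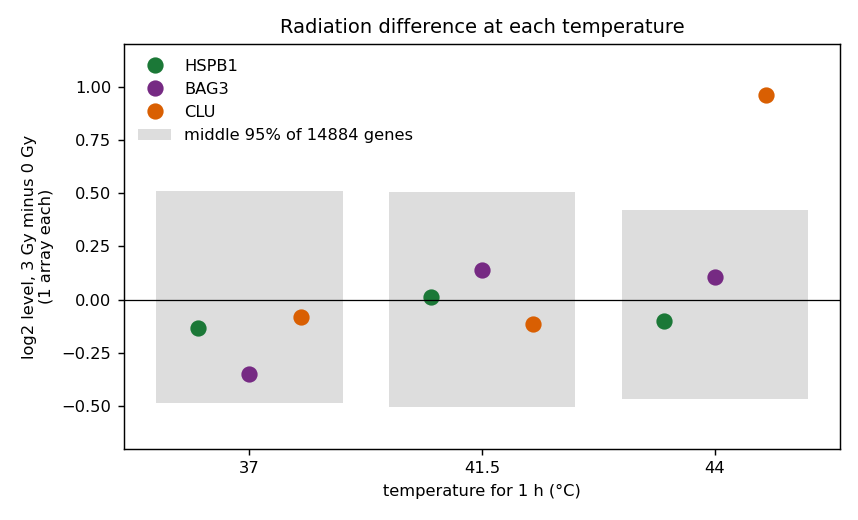
Radiation difference (y axis, log2 level of the array with 3 Gy minus the array without) at 37, 41.5 and 44 °C (x axis) for HSPB1 (green), BAG3 (purple) and CLU (orange), over grey bars for the middle 95% of 14884 genes. CLU at 44 °C, at 0.96, is the only one of the 9 points outside the grey bars.

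A departure from additivity takes the combined array, subtracts the arrays of heat alone and of radiation alone, and adds back the control. No harvest time is given for the combined array or the control, so a departure can include time in culture. At 44 °C it was 1.04 for CLU, 0.45 for BAG3 and 0.035 for HSPB1. The CLU value was the 57th highest of 14884 genes, and 6.51% of genes were above BAG3. At 41.5 °C the departures were -0.033 for CLU, 0.49 for BAG3 and 0.15 for HSPB1. Those of BAG3 share its low value in the irradiated array at 37 °C, which enters both, so they are not separate observations. With 4 single arrays in each departure, the SD over all genes was 0.33 at both temperatures.

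**Figure D3:**
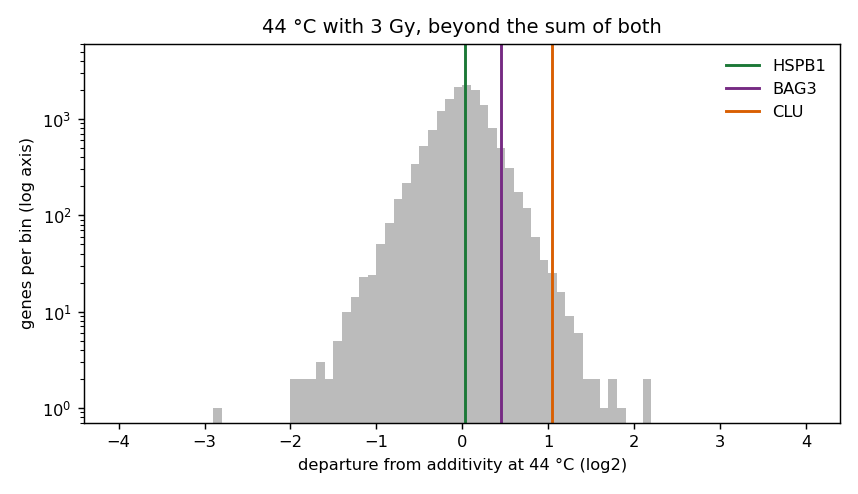
Number of genes (y axis, log scale) by departure from additivity at 44 °C (x axis, log2, bins of 0.1), with lines at HSPB1 (0.035, green), BAG3 (0.45, purple) and CLU (1.04, orange). HSPB1 sits at the centre of the 14884 genes, BAG3 on the upper slope and CLU in the upper tail.

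The 3 genes did not share 1 profile. Across the 6 arrays, Pearson r was 0.83 between HSPB1 and BAG3, 0.67 between BAG3 and CLU and 0.39 between HSPB1 and CLU, given as a description over arrays that share their treatments. The genes nearest to each in profile were found by the root mean square difference of mean-centred log2 levels over the 6 arrays, among 10328 other genes brighter than the median feature. Picked this way, they share the shape of its profile by construction. For HSPB1 they were the noncoding RNA LINC00312 (0.08), MAP2K3, a kinase that activates p38 (0.08), IRF1, an interferon regulatory factor (0.09), SAMD15 (0.09) and the zinc finger gene ZNF460 (0.10). MAP2K3 had log2 levels of 6.07, 7.19 and 7.14 with radiation and 6.27, 7.12 and 7.11 without, at 37, 41.5 and 44 °C. Like HSPB1 it was level from 41.5 °C on.

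For BAG3 the nearest were JUN, a subunit of the AP-1 transcription factor (0.18), DSEL (0.21), the F-box gene FBXW10 (0.24), HBEGF, a growth factor of the EGF family (0.27), and the pseudokinase gene TRIB1 (0.29). JUN was graded as well, with 6.22, 7.50 and 8.98 with radiation and 6.32, 7.62 and 8.95 without. For CLU they were RGPD4 (0.15), the antisense RNA THUMPD3-AS1 (0.15), KBTBD7 (0.17), the ribosomal protein gene RPL31 (0.17) and BMP2, a bone morphogenetic protein (0.18). All 5 neighbours of CLU, picked for this likeness, were also highest in the combined 44 °C array. Their radiation differences at 44 °C, from 0.42 to 0.60, were smaller than the 0.96 of CLU.

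**Figure D4:**
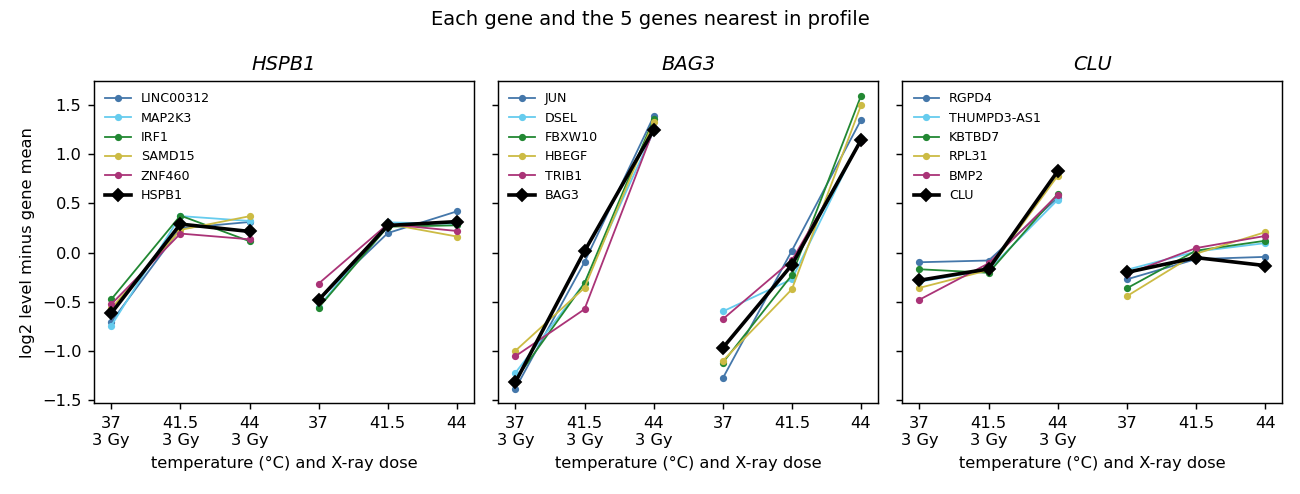
Mean-centred log2 levels (y axis) of HSPB1, BAG3 and CLU (black) and of the 5 genes nearest to each (colours) in the 6 arrays (x axis, 37, 41.5 and 44 °C with 3 Gy on the left and without radiation on the right of each panel). The HSPB1 set is level from 41.5 °C on, the BAG3 set climbs at each step, and the CLU set is highest at 44 °C with 3 Gy. Each set was picked for its likeness in these arrays.

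The genes around these 3 were examined as 9 lists, and here tests were made, gene by gene. The lists too were chosen with earlier results of these arrays known, so counts and medians of a list describe it and do not test it. In limma, with adjustment over all 14884 genes, 3.29% of genes were called at 41.5 °C against 37 °C (2.18% higher and 1.1% lower). At 44 °C against 37 °C the shares were 6.11% (3.57% higher, 2.54% lower) and between 44 °C and 41.5 °C 12.1% (4.9% higher, 7.23% lower). After a further quantile normalization the calls at 44 °C against 37 °C were 485 higher and 596 lower, against 532 and 378 as deposited. For radiation 0 genes were called in limma, so no list gene was called for radiation. An unadjusted p under 0.05 was found for 733 of the 14884 genes. That is no more than the share of 0.05 which this threshold gives where nothing differs. Leaving out 1 array, as done for the calls below, also leaves fewer residual degrees of freedom. A call can then end although its difference stays the same, where that array is at neither compared temperature. Of the list genes named below, moderation that takes no account of the intensity trend ended the calls of HSPA4 and HSPA4L at 41.5 °C, of STIP1 at 44 °C, of HSPH1 and STIP1 between the heats, and of all genes outside the chaperone list except MAP2K3 and MAP1LC3B at 44 °C against 37 °C and MAP1LC3B, GABARAPL1 and HSF2BP between the heats.

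Cytosolic chaperones induced by HSF1, the genes that share with HSPB1 and BAG3 the textbook response to heat, were measured for 9 of 18 listed. At 41.5 °C 5 rose, 0 fell and 4 were not called, with a median difference of 0.43 beside -0.0039 over all genes. At 44 °C 8 rose and 0 fell, with a median of 2.48 beside -0.040. Of all genes 3.29% were called at 41.5 °C and 6.11% at 44 °C. Those called at both heats included HSPA4L and HSPH1. HSPA4L, of the HSP110 family, rose by 1.00 ± 0.11 at 41.5 °C (adjusted p = 0.00173 in limma) and by 1.25 ± 0.11 at 44 °C, and HSPH1, of the same family, by 1.21 ± 0.07 and 1.59 ± 0.07 (adjusted p = 4.8e-05 at 41.5 °C). The HSP70 genes HSPA1A and HSPA1B, near identical in sequence and not separable here, rose by 1.80 and 1.87 at 41.5 °C and by 2.48 and 2.67 at 44 °C.

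Others were called at 44 °C and not at 41.5 °C. HSPA6, a strictly inducible HSP70, had 0.18 at 41.5 °C (adjusted p = 0.546 in limma) and rose by 3.21 ± 0.13 at 44 °C, and CHORDC1, an HSP90 partner, had -0.35 (adjusted p = 0.0805) and rose by 3.00 ± 0.09. Between the heats both were higher at 44 °C, HSPA6 by 3.03 and CHORDC1 by 3.35 (adjusted p = 6.5e-07 and 2.4e-08 in limma). HSPA1L, another HSP70, rose by 2.51 at 44 °C and STIP1, which bridges HSP70 and HSP90, by 0.63, a call that needed both the control and the irradiated array (up to adjusted p = 0.0756 without one). The exception at 44 °C was HSPA4, at 0.26 ± 0.08 (adjusted p = 0.0915), which rose by 0.43 at 41.5 °C, a call lost without the control, the irradiated or the 41.5 °C array (up to adjusted p = 0.255).

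**Figure D5:**
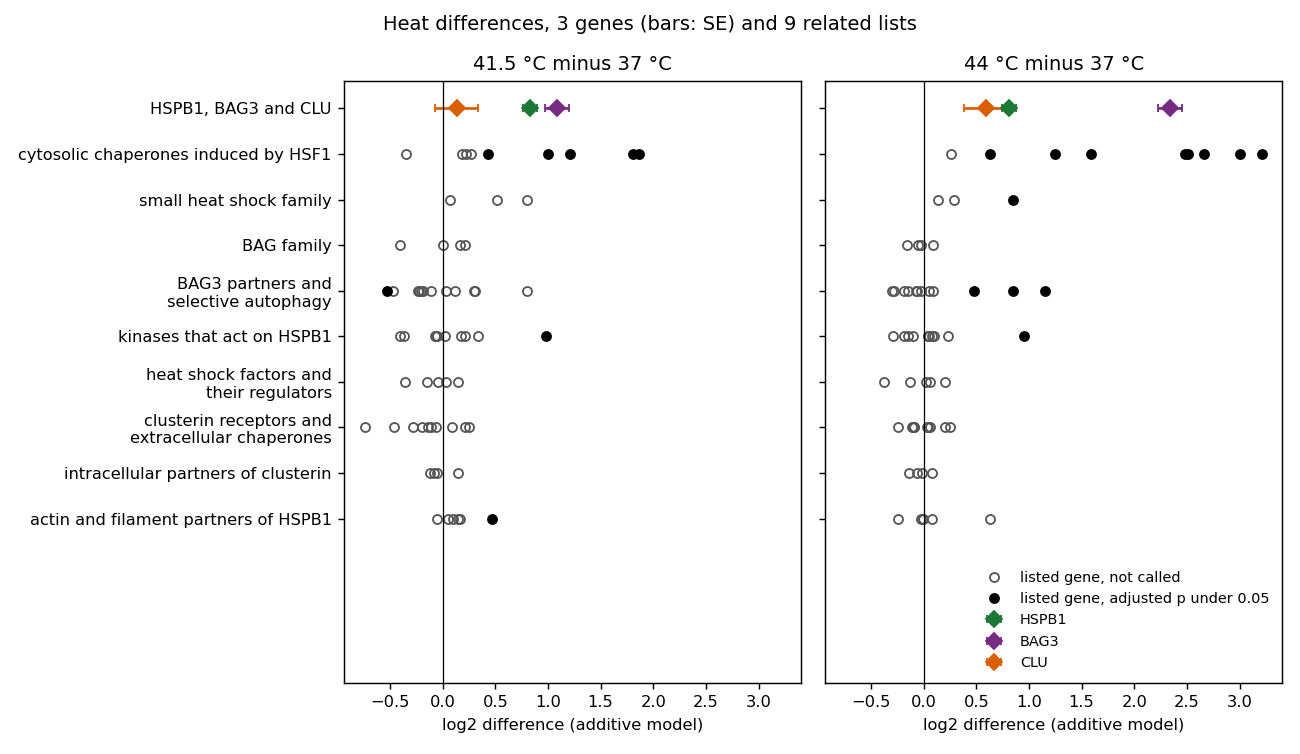
Log2 differences of the additive model (x axis) at 41.5 °C (left) and 44 °C (right) against 37 °C for HSPB1, BAG3 and CLU (coloured diamonds, bars are moderated SE) and for the measured genes of 9 lists (circles, filled where adjusted p was under 0.05). The chaperone row reaches 3.21 at 44 °C, while 4 lists, the BAG family among them, have 0 filled circles in either panel. Over all genes 3.29% (left) and 6.11% (right) were called.

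Of the small heat shock family beside HSPB1, 3 of 10 genes were on named features, and HSPB3 and ODF1 lay below the median of all features, 4.41, in every array. HSPB8 lay below it in both arrays at 37 °C and above it in the 4 heated arrays, so its differences are set against a dim level. HSPB8 encodes the small heat shock protein that BAG3 holds in its complex with HSP70. Its log2 level with radiation was 3.81 at 37 °C, 5.05 at 41.5 °C and 5.04 at 44 °C, and without radiation 4.30, 4.66 and 4.77. The heated arrays stood above both unheated ones, at 0.80 ± 0.21 for 41.5 °C (adjusted p = 0.0683 in limma) and 0.85 ± 0.21 for 44 °C (adjusted p = 0.0386), so that it passed at 44 °C and missed at 41.5 °C, while the heats differed from each other by 0.048 ± 0.206. Its call at 44 °C ended on leaving out the irradiated array or either 44 °C array (up to adjusted p = 0.336), and also when the arrays were quantile normalized once more. With 1 array left out the difference ranged from 0.40 to 1.21 at 41.5 °C and from 0.44 to 1.26 at 44 °C, lowest at both heats without the irradiated array and highest without the control array. The family medians were 0.51 at 41.5 °C and 0.29 at 44 °C, the other members HSPB3 and ODF1 not being called. Of all genes 3.29% were called at 41.5 °C and 6.11% at 44 °C.

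The BAG family beside BAG3 had 4 of 5 genes measured, BAG1, BAG2, BAG4 and BAG5, which also bind HSP70 through BAG domains. None was called at 41.5 °C or 44 °C against 37 °C (0 of 4 in limma at either heat, beside 3.29% and 6.11% of all genes). With so few genes, 0 calls cannot be told apart from those shares. Their differences lay from -0.41 to 0.21 and from -0.16 to 0.09, with medians of 0.083 and -0.040. Between the heats BAG4 was higher at 44 °C by 0.38 ± 0.10 and BAG2 lower by 0.32 ± 0.09 (adjusted p = 0.0404 and 0.0454). The comparison of the 2 heats called 12.1% of all genes. The call of BAG4 ended on leaving out any 1 of the 6 arrays (up to adjusted p = 0.288) and with median-centred arrays, and that of BAG2 on leaving out any but the combined 41.5 °C array (up to adjusted p = 0.331). The differences of BAG3, chosen with its results known, were 1.09 and 2.34.

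Partners of BAG3 in chaperone-assisted selective autophagy were measured for 12 of 20 listed, with medians of -0.15 at 41.5 °C and -0.047 at 44 °C. At 41.5 °C 0 rose and 1 fell, and at 44 °C 3 rose and 0 fell, HSPB8 being counted here too. Over all genes 3.29% and 6.11% were called, and 1 of 12 at 41.5 °C cannot be told apart from that share. MAP1LC3B, the LC3 protein of the autophagosome membrane, rose by 1.15 ± 0.15 at 44 °C (adjusted p = 0.00112 in limma). Its log2 level with radiation was 4.67 at 37 °C, 4.84 at 41.5 °C and 5.66 at 44 °C, and without radiation 4.61, 4.66 and 5.91. The 2 arrays at 44 °C stood clear of the other 4, and leaving out the control ended the call (adjusted p = 0.0535). GABARAPL1, of the same protein family, fell by 0.53 ± 0.11 at 41.5 °C and rose by 0.47 ± 0.11 at 44 °C (adjusted p = 0.0245 and 0.0271). Each of these calls ended without either 37 °C array, the first also without the combined 41.5 °C array and the second without either 44 °C array, but between the heats GABARAPL1 was higher at 44 °C by 1.00 ± 0.11 without any such loss. SQSTM1, the p62 autophagy receptor, and SYNPO, of the synaptopodin family, were lower at 44 °C than at 41.5 °C by 0.36 and 0.45 (adjusted p = 0.0247 and 0.00898). The comparison of the 2 heats called 12.1% of all genes. The call of SQSTM1 was lost without the control, the combined 41.5 °C array or either 44 °C array, and that of SYNPO without the combined 41.5 °C array. Leaving out the control left the SQSTM1 difference itself at -0.36.

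Kinases that act on HSPB1, from the p38 pathway and protein kinase D, were measured for 11 of 12. Against 37 °C 1 rose and 0 fell at either heat, beside 3.29% and 6.11% of all genes called. With so few genes, 1 of 11 cannot be told apart from those shares. It was MAP2K3 both times, higher by 0.99 ± 0.10 at 41.5 °C (adjusted p = 0.00118 in limma) and 0.95 ± 0.10 at 44 °C (adjusted p = 3.2e-04). The call at 41.5 °C needed the irradiated array (adjusted p = 0.104 without it), and the one at 44 °C held without any 1 of the 6. MAPKAPK2, the kinase that phosphorylates HSPB1 directly, was not called (0.093 ± 0.094 at 44 °C), and the list medians were -0.052 and 0.039. Between the heats PRKD2, a protein kinase D, was higher at 44 °C by 0.45 ± 0.12, a call lost without the control, the irradiated array or either heat given alone (up to adjusted p = 0.280).

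Heat shock factors and their regulators were measured for 5 of 6. Against 37 °C 0 were called at either heat, beside 3.29% and 6.11% of all genes, with medians of -0.050 at 41.5 °C and 0.022 at 44 °C. HSF1 itself had -0.13 ± 0.10 at 44 °C (adjusted p = 0.543 in limma). HSF2BP, a binding partner of HSF2, was lower at 44 °C than at 41.5 °C by 0.52 ± 0.13 (adjusted p = 0.0275), a call that ended on leaving out any 1 of the 6 arrays (up to adjusted p = 0.187). Array levels say nothing of the activation of HSF1, which is regulated on the protein.

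Proteins that meet clusterin outside and inside the cell were examined beside CLU. Clusterin receptors and extracellular chaperones were measured for 10 of 13. Against 37 °C 0 were called at either heat, beside 3.29% and 6.11% of all genes, with medians of -0.13 at 41.5 °C and -0.032 at 44 °C. VTN (vitronectin), a plasma protein that also binds complement, was lower at 44 °C than at 41.5 °C by 0.36 ± 0.10 (adjusted p = 0.0336), a call that ended on leaving out any 1 of the 6 arrays (up to adjusted p = 0.238). Intracellular partners of clusterin were measured for 4 of 7 (BAX, XRCC6, XRCC5 and COMMD1), with medians of -0.068 and -0.038. They had 0 calls in any temperature comparison, beside 3.29%, 6.11% and 12.1% of all genes, shares from which 0 of 4 cannot be told apart. Among the actin and filament partners of HSPB1, measured for 6 of 12 with medians of 0.12 and -0.0053, TPM1 (a tropomyosin that lies along actin) rose by 0.47 ± 0.09 at 41.5 °C and was lower at 44 °C than at 41.5 °C by 0.48 ± 0.09. The rise needed each of the 4 arrays at 37 and 41.5 °C, the fall needed the array of 44 °C alone, and neither was called when the features of TPM1 were averaged.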

How the data were processed

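Per the labels' protocols, total RNA was reverse transcribed from random primers, amplified by in vitro transcription and biotin-labelled for Affymetrix arrays. Per the submitters' processing notes, the authors used Affymetrix Expression Console 1.1 and RMA. The authors deposited log2 values, and no source used here names the genome build of the probes. Of 53617 features, 16098 had 1 gene symbol in the platform annotation, and the others are unnamed here. For the 779 genes with several features, the one with the highest mean was kept.

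Differences came from limma 3.58.1 in R 4.3.3, fitted to all 14884 genes in 6 arrays with temperature and radiation as additive terms and variance moderation by an intensity trend (prior degrees of freedom 8.06). The fit was tested on simulated data. P-values are two-sided, Benjamini-Hochberg adjusted over all genes and called under 0.05. The number of arrays limits the precision, with a median SE of 0.138 between temperatures and 0.113 for radiation.

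The members and lists were chosen with earlier results of these data known. All genes of the 5 shorter lists (small heat shock, BAG, heat shock factors, kinases, intracellular partners of clusterin), the extremes of the other lists and the 5 nearest profiles could be named. Alternatives were 2 other scalings, leaving out dim genes, averaging features, moderation without a trend and leaving out each array.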

Additional observations from a re-analysis of the deposited data

Results flagged for a closer look

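The radiation difference had opposite signs at some temperatures. Each such contrast compares 2 pairs of single arrays, so the difference was not tested. Those against 37 °C are the departures from additivity given above, from the same arrays, and are no further observations. For CLU the value at 44 °C exceeded that at 37 °C by 1.04 and that at 41.5 °C by 1.07. For BAG3 the value at 41.5 °C exceeded that at 37 °C by 0.49 and the value at 44 °C exceeded it by 0.45. For HSPB1 the value at 41.5 °C exceeded that at 37 °C by 0.15, and the value at 44 °C minus that at 41.5 °C was -0.11.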

How the results depend on the processing

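The values of HSPB1, BAG3 and CLU were set against the residual SD of each gene's own fit. After a further quantile normalization HSPB1 had 0.75 at 44 °C against 37 °C, 0.71 in the pair without radiation, 0.67 in the pair without radiation at 41.5 °C, and a departure of 0.21 at 41.5 °C. With each array centred on its median HSPB1 had -0.074 at 44 °C against 41.5 °C, -0.035 in the pair without radiation, and 0.73 at 44 °C against 37 °C without radiation. CLU at 44 °C against 41.5 °C turned to -0.073 without the combined 44 °C array. When 1 array at a time was left out, HSPB1 ranged from 0.76 to 0.90 at 41.5 °C, 0.77 to 0.86 at 44 °C, and -0.084 to 0.048 between them, BAG3 from 0.85 to 1.32, 2.10 to 2.57 and 1.12 to 1.38, and CLU from -0.14 to 0.41, 0.060 to 1.12 and -0.073 to 0.98. Called genes ranged from 19 to 800 at 41.5 °C (19 without the irradiated array, 38 without the control, 212 without the combined 41.5 °C array, and 800 or 788 with the plain or the combined 44 °C array left out), from 263 (without the control; 271 without the irradiated array) to 1212 at 44 °C, from 1024 to 1299 between the heats (1024 without the combined 41.5 °C array, 1137 without the 44 °C array), and from 0 to 85 for radiation (85 without either 44 °C array). In the 8 lists other than the chaperones together, 3, 4 and 10 of 54 genes were called in the temperature comparisons, with ranges of 0 to 7, 2 to 5 and 4 to 6. With all arrays, those counts of 54 were 5.56%, 7.41% and 18.5%, beside 3.29%, 6.11% and 12.1% of all genes. Moderation without a trend gave 9, 405 and 791 called genes, 3 chaperones at 41.5 °C, and 0, 2 and 3 genes of the 8 lists. Leaving out dim genes gave 5 genes of the 8 lists at 41.5 °C and 1 called gene for radiation, as did median centring and averaging features (1 each). The cause of these changes was not tested. No paired analysis was possible because each group held 1 array and no replicate numbers link the arrays, beyond the comparison of temperatures within each radiation status that the additive fit makes. The residual SD rests on 2 degrees of freedom and for CLU, at 0.43, includes the combined 44 °C array, so staying within it says little. For radiation the values ranged from -0.12 to -0.043 for HSPB1, -0.12 to 0.12 for BAG3 and -0.098 to 0.44 for CLU with 1 array left out, BAG3 turning positive without either 37 °C array and CLU negative without either 44 °C array.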

Other observations

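Among the 10329 genes brighter than the median feature, 2 had a higher radiation difference at 44 °C than CLU, and they were picked after their values were seen. The pseudogene PA2G4P4 had 1.48, with a log2 level of 5.04 in the combined 44 °C array and 3.56 in the 44 °C array without radiation, against 5.21 to 5.53 in the other 4 arrays. VTRNA1-1, a vault RNA, had 1.23, with 6.84 in the combined 44 °C array and 5.60 without radiation. CLU and VTRNA1-1 were highest in the combined array, whereas PA2G4P4 was lowest in the array of 44 °C alone.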
